A study of Mus musculus with 24 samples.

Results

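The genes described here mark mast cells and basophils. They are Cpa3, Mcpt4, Cma1, Tpsb2, Tpsab1, Mcpt8, Fcer1a, Ms4a2 and Kit, and they were chosen by symbol from what is known of these cells and not by a value. Of the 9 symbols, 7 were found among the 23891 genes of the expression table, while Mcpt4 and Tpsab1 were not analysed here. RNA from the left lung lobe of C57BL/6 mice was sequenced in 24 libraries, and each value is in CPM, the reads of a gene scaled to a common library total. Naïve adult mice (n = 5 libraries) were 20 wk old, and naïve aged mice (n = 5 libraries), also called saline, were 80 wk old. HDM-challenged aged mice (n = 7 libraries) received house-dust mite extract into the nose at 50 µg per dose. HDM + Dex aged mice (n = 7 libraries) also received dexamethasone, a glucocorticoid, at 4 mg/kg by intraperitoneal injection every 72 h. In challenged mice the lung was collected 24 h after HDM was last given. No HDM-challenged adult mice were analysed here, so age and challenge were each compared on their own. The labels do not state that each library came from a separate mouse, and the p-values measure only the spread between these libraries, which may in part be technical.

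Mast cells are tissue cells that store proteases, histamine and heparin in granules, and basophils are blood granulocytes with a similar armoury. Both carry FcεRI, the high-affinity receptor for IgE, and release their granules when allergen cross-links the IgE bound to it. Cpa3 (carboxypeptidase A3), Cma1 and Mcpt4 (chymases) and Tpsb2 and Tpsab1 (tryptases) are granule proteases of mast cells, and Mcpt8 is a protease of mouse basophils. Fcer1a and Ms4a2 encode the α and β chains of FcεRI. Kit encodes the receptor for stem cell factor, on which mast cells depend, but other cells of the lung also use it, among them capillary endothelial cells and group 2 innate lymphoid cells. In the naïve mouse lung, mast cells are few and lie mainly around the large airways.

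Kit stood apart from the other 6 genes. Per kb of exon, Kit was at 11.4 CPM per kb over the 24 libraries, against 0.477 for Cma1, 0.296 for Ms4a2, 0.214 for Cpa3, 0.111 for Tpsb2, 0.105 for Mcpt8 and 0.1 for Fcer1a. The number of reads behind these values was estimated from the spacing of the low values in each library, which gave 10.1 to 33.1 M reads per library. Kit rested on 936 to 3400 reads in each library. The other 6 genes had at most 67 reads in any library, and 74 of their 144 values rested on 3 reads or fewer. Of these 144 values, 31 were listed at the constant of 0.0001 that was added to every value, so that no read was counted. With no read, a library allows a level of up to 0.0906 to 0.298 CPM, which is 3 reads at its depth. None of 10 housekeeping genes was listed at the constant in any library. Of the genes studied, only Kit reached a mean of 1 CPM, and the other 6 were compared between groups by exact permutation tests of the mean CPM. A change in the scarce genes smaller than a few reads was not detectable at this depth, and the spread between libraries can hide larger ones. Ms4a2, for example, summed to 159 reads over 5 naïve aged and 69 reads over 7 HDM libraries (exact permutation test, p = 0.0568).

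The sequences before the transcription start of 4 of the genes are shown. Cpa3 and Ms4a2 are scarce genes with a motif match, and Kit is the abundant gene. Cma1 is the gene with an unadjusted exact permutation p under 0.05 between the ages. GATA factors act in mast cells and basophils, so the letters AGATAA and TGATAA were searched on both strands, and TATAAA on the strand of the gene. RefSeq windows on GRCm38.p6 were found for Cpa3, Mcpt4, Cma1, Mcpt8, Fcer1a, Ms4a2 and Kit. The windows held the 250 bases before the RefSeq start, and the Kit window is printed only as far as the start that GENCODE M21 gives, which leaves 179 bases. Each line reads 5′ to 3′ on the strand of the gene, and capitals mark a GATA match on either strand or TATAAA. They lie at chr3:20242182-20242431 (Cpa3, minus strand), chr19:11623720-11623969 (Ms4a2, minus strand), chr14:55944676-55944925 (Cma1, minus strand) and chr5:75574737-75574915 (Kit, plus strand).
Cpa3: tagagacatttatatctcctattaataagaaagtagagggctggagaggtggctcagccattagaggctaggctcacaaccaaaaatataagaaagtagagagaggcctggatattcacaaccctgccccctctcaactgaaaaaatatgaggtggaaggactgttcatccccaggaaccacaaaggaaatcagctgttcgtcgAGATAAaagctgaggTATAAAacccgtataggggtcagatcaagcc
Ms4a2: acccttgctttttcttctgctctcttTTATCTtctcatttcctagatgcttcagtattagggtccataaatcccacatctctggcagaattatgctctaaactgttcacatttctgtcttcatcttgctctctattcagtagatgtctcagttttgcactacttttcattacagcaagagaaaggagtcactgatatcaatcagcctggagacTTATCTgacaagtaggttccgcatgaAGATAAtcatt
Cma1: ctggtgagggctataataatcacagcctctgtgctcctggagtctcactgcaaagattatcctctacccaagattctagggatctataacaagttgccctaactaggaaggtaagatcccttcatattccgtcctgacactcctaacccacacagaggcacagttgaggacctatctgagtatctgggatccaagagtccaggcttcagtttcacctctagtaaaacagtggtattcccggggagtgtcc
Kit: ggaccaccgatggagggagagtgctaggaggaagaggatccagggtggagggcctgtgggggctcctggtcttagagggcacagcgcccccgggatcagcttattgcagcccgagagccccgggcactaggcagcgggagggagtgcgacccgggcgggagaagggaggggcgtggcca
In the Cpa3 window a GATA match began 46 bases and a TATAAA match 31 bases before the start, with no overlap between them. The Ms4a2 window held 3 GATA matches, which began 224, 37 and 11 bases before the start. The Fcer1a window, not printed, held a GATA match at 92 and TATAAA at 125 bases, and that of Mcpt4 held a GATA match at 103 and TATAAA at 32 bases. Neither motif was found in the windows of Cma1, Mcpt8 and Kit. Of 32851 RefSeq windows of the same length, 16.6% held a GATA match and 7.59% held TATAAA on the strand of the gene. The full Kit window held 17 CG dinucleotides and was 70.8% GC, against 3 CG and 44.4% GC for Cpa3, 1 CG and 38.8% GC for Ms4a2 and 2 CG and 48% GC for Cma1. The median over all windows was 6 CG and 52.4% GC, and 44.4% of windows held fewer than 5 CG. The matches describe these letters and were not tested as binding sites.

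The libraries differed in ways that go with the groups and bear on every comparison. The 7SL RNA genes Rn7s1 and Rn7s2 took 9.92% to 42.0% of the CPM of a library, and over 25% in 1 of 5 naïve adult, 0 of 5 naïve aged, 5 of 7 HDM and 4 of 7 HDM + Dex libraries. By Xist and Ddx3y, 5 of 5 naïve adult, 2 of 5 naïve aged, 2 of 7 HDM and 4 of 7 HDM + Dex libraries were from females. Genes of lung cells (Sftpc, Sftpb, Ager, Rtkn2, Scgb1a1 and Foxj1) summed to 2483 to 15018 CPM in every library. Heart muscle genes were also present and summed to 607 to 1194 CPM in naïve adult, 626 to 1205 CPM in naïve aged, 30.5 to 502 CPM in HDM and 70.8 to 1389 CPM in HDM + Dex libraries. In RNA from whole tissue, fewer cells of a type and less RNA per cell cannot be told apart.

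**Figure D1:**
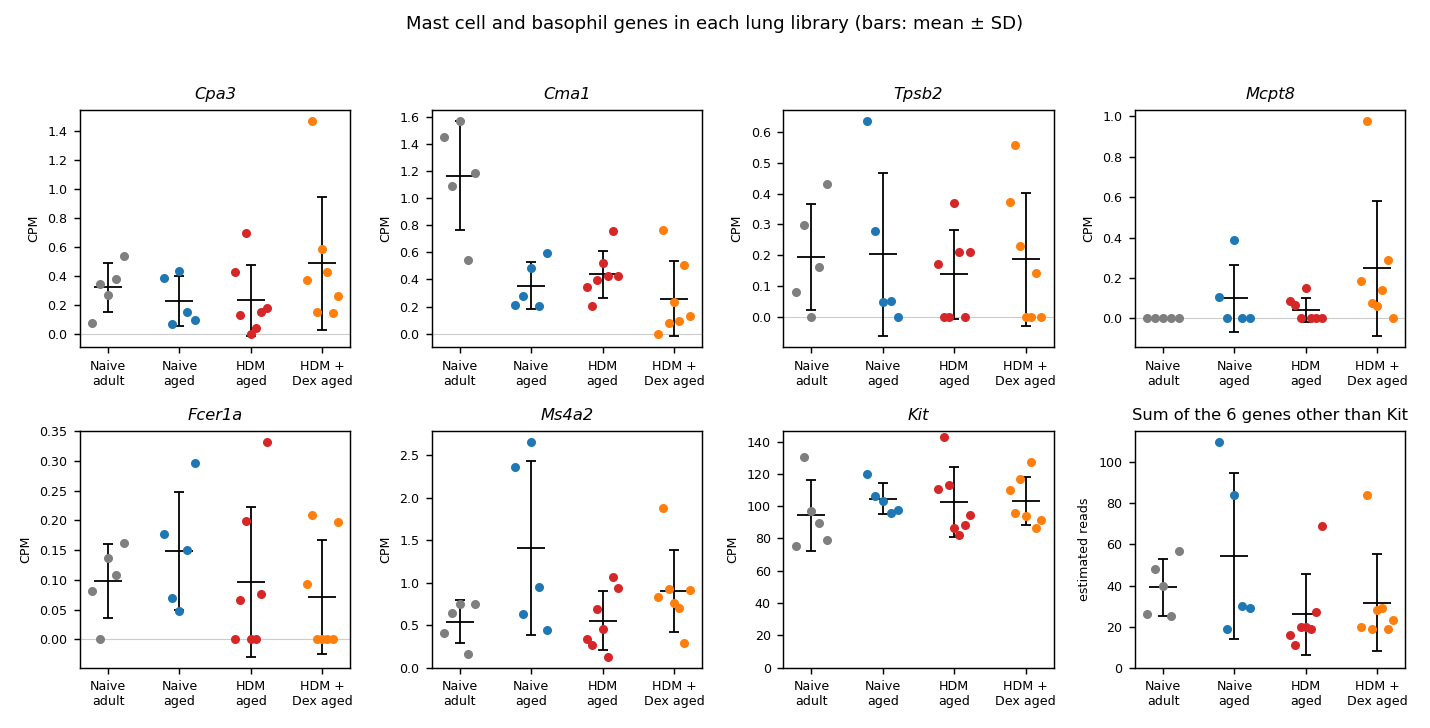
Level in CPM of the 7 genes in each library of the 4 groups, with the estimated reads summed over the 6 genes other than Kit in the last panel. Each point is a library and the bars are the mean ± SD; Kit lies between 75.6 and 143 CPM in all groups, Cma1 is highest in naïve adult mice, and 1 HDM + Dex library (replicate 2) is the highest of its group for the 6 scarce genes.

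Kit did not differ between the groups beyond its spread. In naïve adult mice it was at 75.6, 130, 97.2, 89.6 and 79.2 CPM, and in naïve aged mice at 120, 106, 103, 96.1 and 97.4 CPM. The lowest, median and highest values were 82.2, 94.6 and 143 CPM with HDM and 86.6, 96 and 127 CPM with HDM + Dex. The 4 ranges overlapped, and the group means were 94.4 ± 21.8 CPM (SD, n = 5), 104.7 ± 9.59 CPM (SD, n = 5), 102.6 ± 21.4 CPM (SD, n = 7) and 103.1 ± 15.1 CPM (SD, n = 7). On the scale of log2(CPM + 1), the change with HDM was -0.05 (SE 0.14, 95% CI -0.33 to 0.23, limma adjusted p = 0.817). With HDM + Dex against HDM it was 0.02 (95% CI -0.24 to 0.28, limma adjusted p = 0.971), and against saline it was -0.03 (95% CI -0.31 to 0.25, limma adjusted p = 0.912). Between naïve aged and naïve adult mice it was 0.17 (95% CI -0.23 to 0.57, limma adjusted p = 0.691). By mean CPM, naïve aged exceeded naïve adult mice by 10.3 CPM (exact permutation test, p = 0.365), and by 19.3 CPM without naïve adult replicate 2, the highest of its group (exact permutation test, p = 0.0238). The median over all 17744 genes tested was -0.23, 0.03, -0.19 and 0.19 in these comparisons. When the libraries were rescaled so that this median was near 0, the estimates for Kit took the other sign, at 0.21, -0.024, 0.18 and -0.040, and none was called.

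The share of all genes called gives the background for these counts. With HDM, 4.04% of genes were called higher and 21.2% lower, and with all 23891 genes in the fit 19.8% were called in either direction. For HDM + Dex against HDM the shares were 0.75% higher, 0.214% lower and 0.347% in either direction without the filter. The 171 calls made with the filter were unstable. They fell to between 2 and 8 without HDM replicate 1, 3, 4 or 5 or HDM + Dex replicate 1, 3, 4 or 5, fell to 92 without HDM + Dex replicate 7, and rose to between 292 and 544 without HDM replicate 2, 6 or 7 or HDM + Dex replicate 6. For HDM + Dex against saline they were 0.445%, 1.44% and 0.892%, and for naïve aged against naïve adult 0.592%, 0.062% and 0.435%. Of the mast cell and basophil genes, 0 of 1 tested with the filter and 0 of 7 tested without it were called by limma in each of the 4 comparisons. Without the filter, the unadjusted limma p was under 0.05 for Ms4a2 with HDM and for Cma1 and Ms4a2 between the ages. It was under 0.05 for 0 of 7 genes in the other comparisons, and the share of all genes at that threshold was not counted. The exact permutation tests were two-sided and unadjusted, so some of the 28 can fall under 0.05 without any difference. Of these tests of a gene in a comparison, 1 gave a p under 0.05.

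That test was of Cma1, the mast cell chymase, between the ages. Cma1 was at 1.45, 1.09, 1.57, 0.541 and 1.18 CPM in naïve adult mice, from 18, 22, 23, 10 and 22 reads. It was at 0.212, 0.28, 0.484, 0.201 and 0.594 CPM in naïve aged mice, from 6, 4, 10, 4 and 12 reads. Only the adult library at 0.541 CPM and the aged library at 0.594 CPM overlapped. The mean was 3.3 times as high in naïve adult mice, at 1.17 ± 0.401 CPM (SD, n = 5) against 0.354 ± 0.176 CPM (SD, n = 5). The difference, aged minus adult, was -0.813 CPM, with the adult value higher in 24 of 25 pairs of libraries (exact permutation test, p = 0.0159, the smallest possible being 0.00794). With each library left out in turn p was 0.00794 to 0.0238. In the fit across all 23891 genes, the change was -0.67 on the log2(CPM + 1) scale and was not called (limma adjusted p = 0.102). Every naïve adult library was from a female, while the 2 naïve aged libraries from females were at 0.484 and 0.201 CPM, both below the adult range. Sex was not fitted as a covariate between the ages. In the same comparison, 1 of 9 tested genes of the large airway epithelium was called lower (Bpifb1, -1.49, limma adjusted p = 0.0167) and 0 higher, and the median of the list was -0.77 beside 0.19 over all genes. Bpifa1 was at 139 and 49.7 CPM (means of naïve adult and naïve aged libraries, -1.72, limma adjusted p = 0.164) and Scgb3a1 at 72.0 and 33.5 CPM (-1.20, limma adjusted p = 0.059). After rescaling of the libraries, where 0.456% of all genes were lower, 2 of 9 were called lower, Bpifb1 and Scgb3a1. The 10 genes of that list summed to 1051 to 1934 CPM in naïve adult and 988 to 1649 CPM in naïve aged libraries. Of these genes, Sec14l3 alone averaged 950 and 884 CPM. Krt5, a marker of its basal cells, was listed at the constant in 0 naïve adult and 2 naïve aged libraries. Krt14, another keratin of the list, was at the constant in 2 and 2. In challenged mice the list summed to 208 to 1235 CPM with HDM and 751 to 1576 CPM with HDM + Dex, where the mean of Cma1 was 0.438 and 0.259 CPM. With HDM against saline, 2 of the 9 were called lower and 0 higher, beside 21.2% of all genes lower. The part of the airway genes in the Cma1 result was not tested.

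In challenged mice Cma1 did not pass a test against naïve aged mice. The lowest, median and highest values were 0.201, 0.422 and 0.76 CPM with HDM and 0.0001 (no read), 0.131 and 0.768 CPM with HDM + Dex. All 14 of these values were below 4 of the 5 naïve adult values. The difference was 0.0838 CPM for HDM against saline (exact permutation test, p = 0.429, higher in 21 of 35 pairs). For HDM + Dex against saline it was -0.0956 CPM (exact permutation test, p = 0.523), although 4 of the 7 HDM + Dex values lay below the lowest naïve aged value of 0.201 CPM. For HDM + Dex against HDM it was -0.179 CPM (exact permutation test, p = 0.175), and without HDM + Dex replicate 2, the highest of its group, it was -0.264 CPM (exact permutation test, p = 0.0204, lower in 36 of 42 pairs).

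Cpa3, which trims peptides in the mast cell granule, did not pass the test in any comparison. It was at 0.0808, 0.346, 0.273, 0.379 and 0.538 CPM in naïve adult and at 0.388, 0.0701, 0.435, 0.151 and 0.099 CPM in naïve aged mice. Its lowest, median and highest values were 0.0001 (no read), 0.152 and 0.696 CPM with HDM and 0.144, 0.371 and 1.47 CPM with HDM + Dex. The groups overlapped, and the difference between naïve aged and naïve adult mice was -0.0945 CPM (exact permutation test, p = 0.389). HDM + Dex minus HDM was 0.254 CPM (exact permutation test, p = 0.232), and without HDM + Dex replicate 2, which held 21 of the 52 reads of the group, it was 0.0909 CPM (exact permutation test, p = 0.464).

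Tpsb2, a tryptase, was counted at 18 reads at most. It was at 0.0808, 0.297, 0.0001, 0.162 and 0.43 CPM in naïve adult and at 0.636, 0.28, 0.0484, 0.0504 and 0.0001 CPM in naïve aged mice. No read was counted in 3 of 7 HDM and 3 of 7 HDM + Dex libraries, and the highest values there were 0.37 and 0.558 CPM. The p-values of its 4 exact permutation tests were 0.644, 0.671, 0.905 and 0.96. The mast cell proteases and tryptases are families of related neighbouring genes on chromosomes 14 and 17, and how the counting split reads between Cma1, Mcpt8, Tpsb2 and their relatives is uncertain.

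Mcpt8, the basophil protease, was counted in aged mice and in none of the 5 naïve adult libraries, each of which allowed up to 0.148 to 0.242 CPM. In naïve aged mice it was at 0.106, 0.0001, 0.387, 0.0001 and 0.0001 CPM. With HDM, 4 of 7 libraries had no read and the highest was 0.148 CPM from 2 reads. With HDM + Dex, 1 of 7 had no read, the median was 0.142 CPM and the highest was 0.977 CPM, in replicate 2. The mean with HDM + Dex exceeded that with HDM by 0.204 CPM, higher in 36 of 49 pairs (exact permutation test, p = 0.0577, smallest possible 0.000583). Without HDM + Dex replicate 2 the difference was 0.0822 CPM (exact permutation test, p = 0.105). Without HDM + Dex replicate 3, 4 or 7, the p of the exact permutation test was 0.0367, 0.028 and 0.0128. The HDM + Dex group held 25 reads in all and the HDM group 4, and which side of 0.05 the test fell on depended on the library left out. The difference between naïve aged and naïve adult mice was 0.0985 CPM (exact permutation test, p = 0.444).

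The α chain of FcεRI, Fcer1a, which binds IgE, had the lowest mean per kb. It was at 0.0808, 0.0001, 0.137, 0.108 and 0.161 CPM in naïve adult and at 0.177, 0.0701, 0.0484, 0.151 and 0.297 CPM in naïve aged mice. No read was counted in 3 of 7 HDM and 4 of 7 HDM + Dex libraries, and the highest value was 0.332 CPM from 11 reads, in the deepest HDM library. Its exact permutation tests gave p = 0.202 to 0.719 over the 4 comparisons.

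The β chain, Ms4a2, which amplifies the signal of the receptor, was the only scarce gene with a read in all 24 libraries. It was at 0.404, 0.65, 0.751, 0.162 and 0.753 CPM in naïve adult and at 2.37, 0.63, 2.66, 0.955 and 0.445 CPM in naïve aged mice. The lowest, median and highest values were 0.127, 0.457 and 1.06 CPM with HDM and 0.287, 0.835 and 1.88 CPM with HDM + Dex. Replicates 1 and 3 of the naïve aged group, with 67 and 55 reads, lay above all other libraries, and the remaining naïve aged values lay within the HDM range. The mean was 1.41 ± 1.03 CPM (SD, n = 5) in naïve aged, 0.544 ± 0.256 CPM (SD, n = 5) in naïve adult, 0.556 ± 0.352 CPM (SD, n = 7) in HDM and 0.904 ± 0.484 CPM (SD, n = 7) in HDM + Dex libraries. HDM minus saline was -0.855 CPM, lower in 27 of 35 pairs (exact permutation test, p = 0.0568, smallest possible 0.00126). Without naïve aged replicate 2, naïve aged replicate 5 or HDM replicate 6 the p of the exact permutation test was 0.0333, 0.0242 and 0.0433, and without naïve aged replicate 1 or 3 it was 0.145 and 0.155, with differences of -0.616 and -0.543 CPM. In the fit across all genes without the filter the change was -0.56 on the log2(CPM + 1) scale (limma adjusted p = 0.0908). Naïve aged minus naïve adult was 0.867 CPM (exact permutation test, p = 0.127), and without naïve aged replicate 5 it was 1.11 CPM (exact permutation test, p = 0.0317). HDM + Dex minus HDM was 0.348 CPM (exact permutation test, p = 0.145). It was 0.184 CPM without HDM + Dex replicate 2 (exact permutation test, p = 0.288) and 0.45 CPM without HDM + Dex replicate 6 (exact permutation test, p = 0.0495).

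By CPM, HDM + Dex replicate 2 was the highest of its group of 7 for Cpa3, Cma1, Tpsb2, Mcpt8, Fcer1a and Ms4a2. For Fcer1a this was a tie in reads, with 3 in replicate 2 (0.21 CPM) and 3 in replicate 7 (0.197 CPM). The 6 genes summed to 5.86 CPM from 84 reads in replicate 2, against a group median of 1.51 CPM. In the other groups the sum ran from 1.35 to 3.07 CPM in naïve adult, 1.33 to 4.06 CPM in naïve aged and 0.736 to 2.08 CPM in HDM libraries. By depth (14.3 M reads), 7SL share (26.8%) and sex (male), this library lay within the range of its group. It ranked as number 4 of 7 for the summed lung, eosinophil and capillary endothelial genes and as number 3 of 7 for heart muscle genes. For the large airway epithelium it was number 5 of 7. Of the pathway lists described below, it was number 2 of 7 for basophil genes and 4 for granule genes. For receptors and transcription factors it was number 7, for IgE receptor signalling 5 and for growth factors and cytokines 3.

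The genes whose level followed that of Kit most closely from library to library, after the group means were removed, were Sox11 (Pearson r = 0.851), Sema6a (r = 0.837) and Ushbp1 (r = 0.825), out of 17744 genes over 24 libraries. The capillary endothelial genes Kdr and Ptprb gave r = 0.68 and 0.639, Cdh5 and Pecam1 gave 0.335 and 0.257, and Kitl, which encodes the ligand of Kit, gave 0.44. These values describe libraries that share depth and composition, and for Kit the correlation with the 7SL share was 0.00423. With HDM, where 21.2% of all genes were called lower, 4 of 7 capillary endothelial genes were lower and 0 higher, among them Kdr (-0.63, limma adjusted p = 0.0196) and Ptprb (-0.90, limma adjusted p = 0.0022). After rescaling of the libraries 2 of 7 were lower, and with the 7SL share as a covariate 0 of 7. Group 2 innate lymphoid cell genes had 1 higher (Il1rl1) and 1 lower (Rora) of 6 tested, with 4 higher and 1 lower after rescaling, 3 and 1 with sex as a covariate and 2 and 0 with the 7SL share as a covariate. Over all genes, the shares higher and lower were 11.0% and 11.5% after rescaling, 5.39% and 23.05% with sex, and 6.6% and 2.25% with the 7SL share.

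Genes of the pathway around these markers were called with HDM, and the balance of higher and lower calls depended on the scaling. Lists of mast cell granule genes, receptors and transcription factors, basophil genes, IgE receptor signalling and growth factors were read beside them. With HDM against saline, where 4.04% of all genes were called higher and 21.2% lower, 0 genes were higher and 1 lower of 5 tested granule genes, 4 higher and 2 lower of 7 receptors and transcription factors, 2 higher and 0 lower of 2 basophil genes, 3 higher and 1 lower of 13 IgE receptor signalling genes, and 1 higher and 1 lower of 5 growth factors and cytokines. After rescaling of the libraries, 11.0% of all genes were called higher and 11.5% lower. The granule genes then had 1 higher and 1 lower, the receptors and transcription factors 4 and 1, and the basophil genes 2 and 0. IgE receptor signalling had 7 and 0, and the growth factors and cytokines 2 and 0. With the 7SL share as a covariate, where 6.6% of all genes were higher and 2.25% lower, the counts were 0 and 0, 2 and 1, 1 and 0, 5 and 0, and 1 and 0. With sex as a covariate, where 5.39% of all genes were higher and 23.05% lower, IgE receptor signalling had 6 higher and 1 lower. Some genes stand in more than 1 list. The median log2 fold changes were -0.17, 0.53, 1.08, 0.21 and -0.38, beside -0.23 over all genes.

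Of the granule genes, Hdc, which makes histamine, fell. It was at 45.3, 59.9, 51.5, 69.1 and 85.1 CPM in naïve aged mice and at 10.4, 26.3 and 55.8 CPM (lowest, median and highest) with HDM. Of the 7 HDM libraries, 5 lay below all naïve aged libraries, and the change was -1.14 (SE 0.31, limma adjusted p = 0.0102). Slc18a2, Hpgds, Srgn and Ndst2 were not called. Mcpt1, the protease of mucosal mast cells, was below 1 CPM on average. Mcpt1 had no read in 5 of 5 naïve aged, 4 of 7 HDM and 2 of 7 HDM + Dex libraries, and its highest value was 1.39 CPM. Mcpt2, Mcpt9, Cma2, Tpsg1, Ctsg and Tph1 were not analysed here.

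Among the transcription factors, Gata2, which mast cells, basophils and endothelial cells use, fell with HDM from 129 ± 12.3 CPM (SD, n = 5) to 65.5 ± 16.5 CPM (SD, n = 7). It was at 116, 119, 147, 132 and 130 CPM in naïve aged mice, and all 7 HDM libraries were lower, at 50.6 to 88.0 CPM. The change was -0.996 (SE 0.18, limma adjusted p = 0.000883). Mitf, a factor of mast cells and of macrophages, rose by 0.53 (limma adjusted p = 0.0378). Cebpa was not called, and Gata1 was below 1 CPM on average.

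Of the receptors, Il1rl1, the receptor for IL-33, rose from 3.15 ± 1.36 CPM (SD, n = 5) to 9.99 ± 4.36 CPM (SD, n = 7), a change of 1.33 (SE 0.28, limma adjusted p = 0.00204). With HDM + Dex it was at 5.9 to 10.2 CPM and still above saline (1.13, limma adjusted p = 0.0402). Il3ra, the α chain of the IL-3 receptor, was higher in all 7 HDM libraries than in any naïve aged library (0.72, limma adjusted p = 0.0108). Its partner chain Csf2rb rose by 0.78 (limma adjusted p = 0.0373), although reads of Csf2rb and of its near copy Csf2rb2 may have been split. Ccr3, the eotaxin receptor of eosinophils and basophils, rose by 1.44 (limma adjusted p = 0.0344), with HDM values from 0.151 to 11.8 CPM. The integrin Itga2 fell by 0.54 on the log2 scale (limma adjusted p = 0.0113). Of 6 tested eosinophil genes, 1 was higher, Ccr3 itself, and the summed list ran from 21.2 to 37.6 CPM in naïve aged and from 21.3 to 83.0 CPM in HDM libraries. The part of eosinophils in these results was not tested. Adora3 and Cd200r3 were below 1 CPM on average, Cd200r3 at 0.617 ± 0.505 CPM (SD, n = 5) in naïve aged and 0.759 ± 0.476 CPM (SD, n = 7) in HDM libraries. Mrgprb2, the mast cell receptor for basic peptides, was not analysed here.

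**Figure D2:**
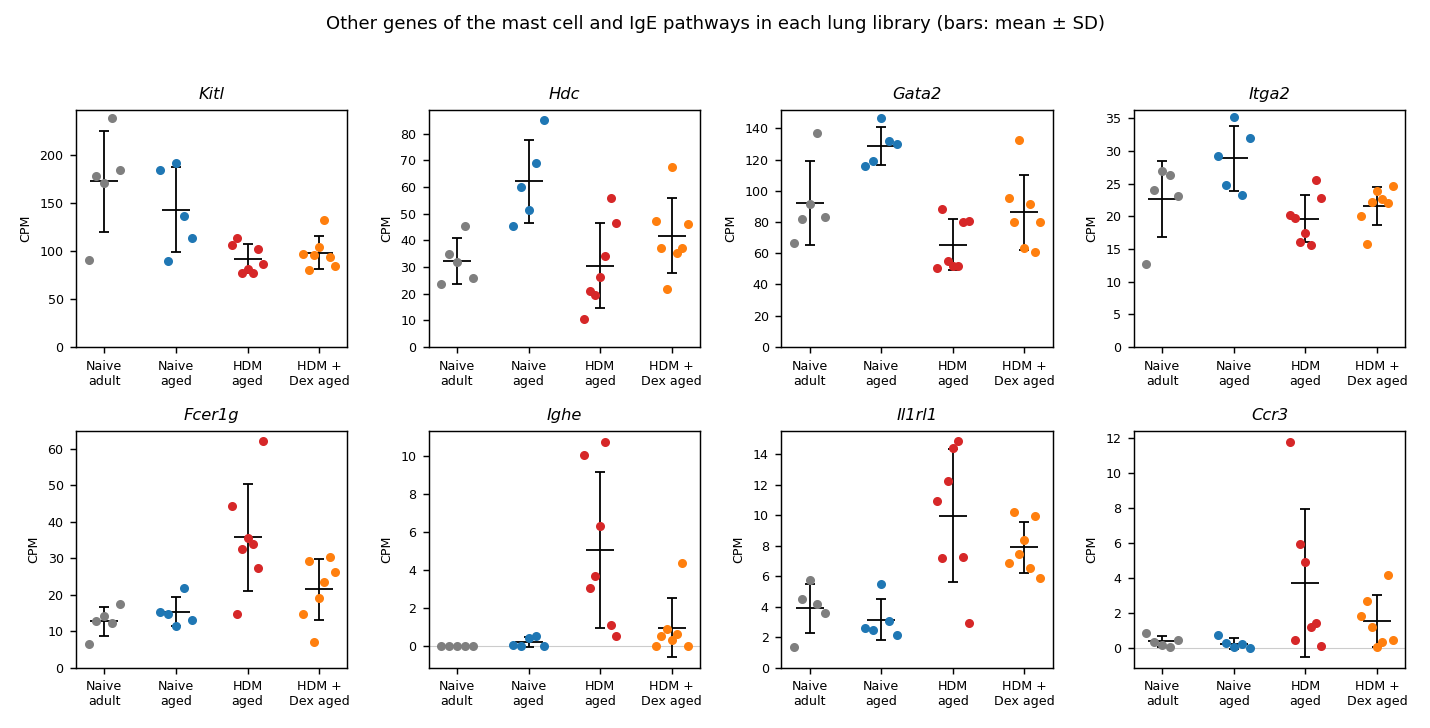
Level in CPM of 8 other genes of the mast cell and IgE pathways in each library of the 4 groups, with bars for the mean ± SD. Each point is a library; all 7 HDM libraries lie below the naïve aged libraries for Gata2, and 6 of 7 lie above them for Fcer1g, Ighe and Il1rl1.

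In the IgE receptor pathway, the transcripts of the shared γ chain and of the IgE heavy chain rose with HDM. The chains particular to FcεRI, Fcer1a and Ms4a2, were below the filter and not in that fit. The fit without the filter did not call them. The estimate for Ms4a2 did not follow the rise of the γ chain. Its mean was 0.556 CPM with HDM and 1.41 CPM in naïve aged libraries (exact permutation test, p = 0.0568). At the read counts of Fcer1a, the fit cannot show whether that chain followed the γ chain. Fcer1g, the γ chain that FcεRI shares with the activating IgG receptors of myeloid cells, was at 15.3 ± 3.95 CPM (SD, n = 5) in naïve aged mice. It was at 35.8 ± 14.7 CPM (SD, n = 7) with HDM, 6 of 7 libraries being above all naïve aged libraries (1.10, SE 0.30, limma adjusted p = 0.0127). Ighe, the heavy chain of IgE made by B lineage cells, had no read in 5 of 5 naïve adult libraries and was at 0.222 ± 0.253 CPM (SD, n = 5) in naïve aged libraries. With HDM it was at 0.544, 3.68 and 10.7 CPM (lowest, median and highest), a change of 2.0 (SE 0.44, limma adjusted p = 0.00315). With HDM + Dex, Ighe was at 0.0001 (no read), 0.558 and 4.38 CPM, and the change against HDM was -1.53 (limma adjusted p = 0.0668). The adaptor Lat2 rose by 0.87 (limma adjusted p = 0.0151), and the phospholipase Plcg1 fell by 0.45 on the log2 scale (limma adjusted p = 0.0244). Lyn, Fyn, Syk, Lat, Lcp2, Gab2, Btk, Plcg2 and Inpp5d were not called.

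Of the growth factors, Kitl, stem cell factor, fell with HDM. It was at 184, 89.9, 191, 136 and 113 CPM in naïve aged mice and at 76.9, 86.4 and 113 CPM (lowest, median and highest) with HDM, so the ranges overlapped. The change was -0.59 (SE 0.17, limma adjusted p = 0.0156), and without naïve aged replicate 1 or 3 it was -0.49 and -0.47 (limma adjusted p = 0.0624 and 0.0648). Tgfb1, a growth factor of many cell types, rose by 0.65 (limma adjusted p = 0.00841). Il33, the alarmin that mast cells and group 2 innate lymphoid cells sense, was at 41.3 ± 11.4 CPM (SD, n = 5) in naïve aged and 84.1 ± 37.4 CPM (SD, n = 7) in HDM libraries (0.92, limma adjusted p = 0.055). Without HDM replicate 2 it was 1.12 (limma adjusted p = 0.0168). Tslp and Il18 were not called, Il13 was below 1 CPM on average, and Il3, Il4 and Il9 were not analysed here.

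These calls differed in how far they held. With the 7SL share as a covariate, 6 of the 14 pathway genes called with HDM were still called, and Ccr3, Hdc, Ighe, Il1rl1, Itga2, Kitl, Mitf and Plcg1 were not. Their limma adjusted p then ran from 0.0794 (Il1rl1) to 0.776 (Ccr3). Of the heart muscle genes, 9 of 9 tested were lower with HDM and 0 higher, and of the lung genes 3 of 6 were lower and 0 higher. With the 7SL share as a covariate these were 4 of 9 and 0 of 6 lower, and over all genes the calls turned from 717 higher and 3765 lower to 1172 higher and 399 lower. This fit also called Lat, Lcp2 and Btk higher. The part of the 7SL share and of other tissue in the library in these results was not tested further. With the sex of the mouse as a covariate all 14 were called. After rescaling of the libraries, Ndst2, Lat, Lcp2, Btk, Inpp5d and Il33 were also called higher, 11 of the 14 were still called, and Itga2 (-0.29, limma adjusted p = 0.0606), Plcg1 (-0.19, limma adjusted p = 0.357) and Kitl (-0.33, limma adjusted p = 0.171) were not. Gata2, Fcer1g, Il3ra and Tgfb1 were called in the same direction under every alternative that tested them. Their highest limma adjusted p was 0.0192, 0.041, 0.0442 and 0.0346. Il3ra averaged below 5 CPM and was not in the fit with that filter. Csf2rb was not called without naïve aged replicate 1, 2 or 3 or HDM replicate 5 or 7, nor Lat2 without naïve aged replicate 5 (0.72, limma adjusted p = 0.0523). Plcg1 was not called without naïve aged replicate 3, 4 or 5 or HDM replicate 3 or 5. Mitf was not called without naïve aged replicate 1, 2, 3 or 5 or HDM replicate 1, 3, 4 or 5, and Ccr3 without naïve aged replicate 2, 3, 4 or 5 or HDM replicate 1, 3 or 4. The range of the change over the libraries left out was 0.58 to 0.92 for Csf2rb, -0.53 to -0.39 for Plcg1, 0.43 to 0.67 for Mitf and 1.11 to 1.69 for Ccr3.

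**Figure D3:**
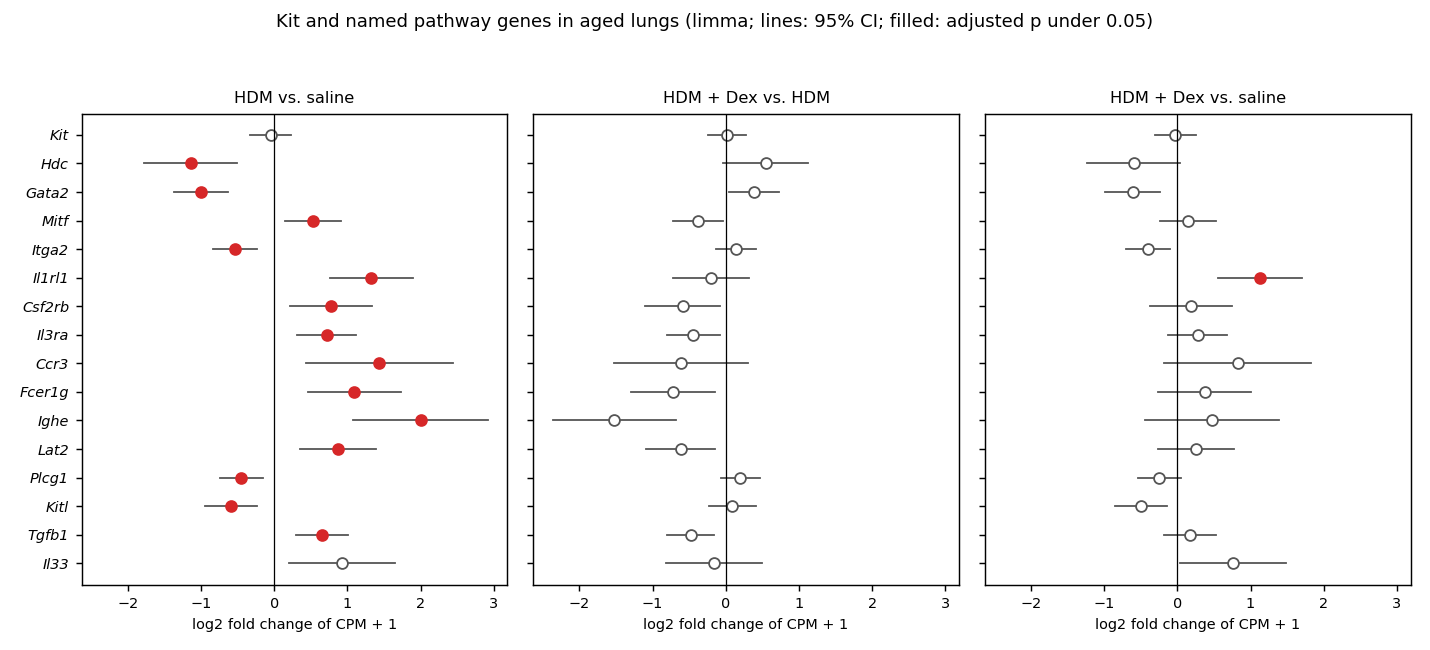
Change in Kit and 15 pathway genes between aged groups, as the log2 fold change of CPM + 1 with its 95% CI (limma), in 3 panels titled with the groups compared. Filled points have an adjusted p under 0.05: 14 genes in the HDM vs. saline panel, none in the HDM + Dex vs. HDM panel and Il1rl1 alone in the panel of HDM + Dex vs. saline, while Kit lies near 0 in each.

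Dex and age gave few calls in the pathway. For HDM + Dex against HDM, 0 genes of the 5 lists were called, where 0.75% of all genes were higher and 0.214% lower. The share of all genes with an unadjusted limma p under 0.05 was not counted and cannot be set beside the next number. Of the 31 genes tested, 10 had such a p, 1 higher and 9 lower. Alternatives did call some of them lower: Tgfb1 after rescaling and with sex, the 7SL share or sample weights in the fit, Ighe with the 7SL share, sample weights or all 24 libraries in the fit, Inpp5d with sex and Il3ra with the 7SL share. Ighe was also called lower without HDM replicate 2, 6 or 7 or HDM + Dex replicate 6 (limma adjusted p = 0.015 to 0.0487), and Srgn, Mitf, Lat2 and Tgfb1 without HDM replicate 2. Gata2 changed by 0.38 (limma adjusted p = 0.284), Hdc by 0.54 (limma adjusted p = 0.411), Fcer1g by -0.72 (limma adjusted p = 0.225) and Kitl by 0.09 (limma adjusted p = 0.867). The comparisons with HDM and with saline share the HDM and naïve aged libraries, so their values are not independent. A change against HDM is therefore not separate evidence beside an opposite change of HDM against saline. For HDM + Dex against saline, Il1rl1 was the only gene of the 5 lists called. With sex as a covariate, where 9.86% of all genes were lower, 2 receptors or transcription factors and 1 growth factor were also called lower. The Il1rl1 call was lost under several settings, among them no filter on low values (limma adjusted p = 0.0562) and the 7SL share as a covariate (0.79, limma adjusted p = 0.363). It was also lost without naïve aged replicate 1, 2, 4 or 5 or HDM + Dex replicate 1, 2, 3 or 6, with changes over the libraries left out of 1.04 to 1.31. Between naïve aged and naïve adult mice, 0 genes of the 5 lists were called. An unadjusted limma p under 0.05 was found for 13 of 31, all higher in aged mice, beside a median of 0.19 over all genes. Without the share of all genes at that p, this number cannot be told from the general shift. Srgn was called higher after rescaling (0.77, limma adjusted p = 0.0454), Hdc, Hpgds, Srgn and Plcg2 with sample weights, and Hdc without naïve adult replicate 4 (1.05, limma adjusted p = 0.0424). Hdc was at 62.2 ± 15.6 CPM (SD, n = 5) in naïve aged and 32.3 ± 8.63 CPM (SD, n = 5) in naïve adult mice (0.93, limma adjusted p = 0.0664). The adult libraries were at 23.5, 34.9, 32.0, 45.4 and 25.9 CPM, and only the highest of them overlapped the aged range.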

How the data were processed

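RNA from left lung lobes was analysed in 24 libraries of the 4 groups given by the sample labels. By the methods of the study, the authors prepared libraries from stranded mRNA, read them from both ends and used the Picard-STAR-limma pipeline. The submitters' processing notes name FastQC, STAR, DESeq2 and the build mm9, with no versions. The authors deposited 1 table of CPM, in which a constant of 0.0001 was added to every value. Its gene coordinates were compared with GENCODE M21 on GRCm38: of 23891 symbols, 23276 were found, 23142 had the same start and 23049 of these ended 1 base past the annotated end. The rule for keeping genes and the handling of strand are not given in the sources used here.

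Depth was estimated from the spacing of low CPM values, taken as 1 read. Of the values below 20 steps, 80.3% to 85.0% were whole multiples within 0.05, so no count test was run. Of the 144 values of the scarce genes, 142 were whole. The floor of 3 reads covers counting error only, while the 95% CIs of limma rest on the spread between libraries.

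Limma 3.58.1 in R 4.3.3 was run on log2(CPM + 1), keeping 17744 genes whose mean reached 1 CPM. The variance was allowed to follow the mean, and the Benjamini-Hochberg threshold was 0.05. The 3 comparisons of aged groups were fitted on 19 libraries and the comparison of ages on the 10 naïve libraries. Fold changes on this scale understate those of low genes. The 7 genes with a row were compared by exact two-sided permutation tests of the mean CPM in 28 tests, with p-values not adjusted (NumPy 2.4.6). The alternatives were another pseudocount (0.1), no filter or a filter of 5 CPM, median-of-ratios rescaling, other samples in the fit, no trend, sample weights, the replicate number as a block, sex or 7SL share as a covariate, and each library left out in turn. Sex was read from Xist and Ddx3y. The scripts were tested on simulated data. Named genes were the 9 symbols, every gene of the 5 pathway lists called in HDM vs. saline, HDM + Dex vs. HDM or naïve aged vs. naïve adult, 10 genes fixed by name whatever their values (Kitl, Fcer1g, Hdc, Gata2, Mrgprb2, Cd200r3, Il3, Il4, Il9 and Il33), and the 3 genes most like Kit. Genes named beside these were chosen after their values were seen. The genes and lists were chosen with earlier results of these data known. Promoter windows came from RefSeq.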

Additional observations from a re-analysis of the deposited data

Results flagged for a closer look

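The highest or lowest value of a gene was compared with the others in 27 groups of 5 or 7 libraries, and 4 held a library far from the rest. For independent and normally distributed values the cutoffs give about 1 in 20, or 1.35. Counts of a few reads are not normally distributed and flags in the same library are not independent, so that rate does not apply here. Cpa3 in HDM + Dex replicate 2 was at 1.47 CPM, with the next library at 0.589 CPM. In the same library Mcpt8 was at 0.977 CPM, with the next at 0.287 CPM, and Ms4a2 was at 1.88 CPM, with the next at 0.926 CPM. Mcpt8 in naïve aged replicate 3 was at 0.387 CPM, with the next library at 0.106 CPM. The 4 values rest on 21, 14, 27 and 8 reads.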

How the results depend on the processing

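Limma did not call Kit in any setting or comparison. The 6 scarce genes were in the fit only without the filter, where none was called. The sign of the Kit estimate did not hold. After rescaling it was 0.21 for HDM vs. saline, -0.024 for HDM + Dex vs. HDM, 0.18 for HDM + Dex vs. saline and -0.040 for naïve aged vs. naïve adult. With the replicate number as a block it was 0.020 for HDM vs. saline and 0.038 for HDM + Dex vs. saline. With each library left out in turn it ran from -0.13 to 0.0023, from -0.034 to 0.10 and from -0.082 to 0.021 in the 3 aged comparisons. The number of genes with an exact permutation p under 0.05 ran, with 1 library left out, from 0 to 1 for HDM vs. saline, from 0 to 1 for HDM + Dex vs. HDM and from 1 to 2 for naïve aged vs. naïve adult. The last includes Kit without naïve adult replicate 2 (19.3 CPM, exact permutation test, p = 0.0238). The cause was not tested, except that leaving out a library leaves fewer libraries. Same-numbered libraries of different groups deviated together with correlations of -0.24 to 0.41, so the numbers were not taken to pair the mice, and the 14 pathway calls with HDM remained under the block. Rescaling changed the split of all genes called higher and lower from 717 and 3765 to 1958 and 2035 for HDM vs. saline, from 133 and 38 to 352 and 153 for HDM + Dex vs. HDM, from 79 and 256 to 90 and 79 for HDM + Dex vs. saline and from 105 and 11 to 109 and 81 for naïve aged vs. naïve adult. The number of all genes called also moved with other settings. It was 4482 for HDM vs. saline in the fit reported, 1571 with the 7SL share as a covariate and 7876 with sample weights. For HDM + Dex vs. HDM it was 171, against 1 with only the 2 groups, 8 with the block, 293 with sex, 563 with the 7SL share, 316 with all 24 libraries and 611 with sample weights. For HDM + Dex vs. saline it was 335, and over all alternatives 34 (7SL share) to 5471 (sample weights). For naïve aged vs. naïve adult it was 116, and 65 (all 24 libraries) to 784 (sample weights). Depth and the spread between libraries limit the 6 scarce genes, for which most libraries hold a few reads.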
